A study of Mus musculus with 12 samples.

Results

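*Perp* and 9 other target genes of the transcription factor p53 (*Cdkn1a*, *Mdm2*, *Ccng1*, *Bbc3*, *Bax*, *Trp53inp1*, *Sesn2*, *Zmat3* and *Phlda3*) were followed in mouse female germline stem cells (FGSCs), to see whether *Perp* changed alone or with the others. FGSCs are cells of the ovary that can be kept dividing in culture. The 10 genes were found by their symbols among 24809 genes and held 13 of the 41388 RefSeq transcripts that were counted. *Perp* was chosen by its measured difference between the overexpressing line and its control, and the low *Cdkn1a* count in the knockout line was already known, so those values are given as descriptions with no p. Bulk RNA-seq covered 12 libraries in 4 groups of 3. KO was a line in which *Stella* (*Dppa3*) had been knocked out by CRISPR/Cas9 and lentiviral guides, grown from 1 single-cell clone, and KO-con was its control, whose vector the labels do not give. Over was a line infected with a *Stella* lentivirus and kept under puromycin, and Over-con was infected with the empty virus. All 4 groups were C57BL/6 cells past passage 20, grown on STO feeders, which are mouse fibroblasts, so feeder reads cannot be told apart from FGSC reads. In such bulk samples, fewer cells of a type and less RNA per cell cannot be told apart either. The sources used here do not say whether the 3 libraries of a group were separate cultures, so p-values measure only the spread between these libraries.

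p53 is held low in resting cells by the ubiquitin ligase MDM2, and after DNA damage or other stress it is stabilized and binds response elements near its targets. The targets stop the cell cycle, start apoptosis, repair DNA, change metabolism, or switch p53 off again. *Perp* encodes a membrane protein of the PMP22 family that was found as an apoptosis-linked p53 target and also serves in desmosomes, the junctions that hold epithelial cells together.

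The p53 response element is made of a pair of decamers, and sequences of this form within 5 kb of the 5′ end of each gene show where the 10 genes carry one. The p53 consensus was searched on mm9 with no spacer, with the CNNG core of both decamers intact and with up to 2 mismatches in 20 bases. A site and its reverse complement both fit this palindromic form, so each stretch was counted once. The sites are printed on the strand of the gene, with the cores in capitals:
Perp, upstream: attCTAGcccaggCTTGccc
Perp, intron: gggCAAGctctggCATGtca
Cdkn1a, upstream: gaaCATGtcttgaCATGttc
Ccng1, upstream: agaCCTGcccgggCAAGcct
Ccng1, intron: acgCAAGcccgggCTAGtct
Bax, untranslated exon: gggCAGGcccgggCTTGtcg
Zmat3, intron: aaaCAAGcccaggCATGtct
Zmat3, upstream: gagCAAGtctgggCTTGtta

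Positions are counted in bases from the 5′ end of the gene, negative before it. The *Perp* sites lay at chr10:18562840-18562859 (position -2028, between genes) and at chr10:18567823-18567842 (position 2956, in an intron), each with 2 mismatches. The *Cdkn1a* site at chr17:29227873-29227892 lay just before the gene at position -42 and had 1 mismatch. *Ccng1* had a site with 1 mismatch at chr11:40568964-40568983 (position -160), and another with 1 mismatch at chr11:40568438-40568457, in an intron at position 366. The *Bax* site at chr7:52721944-52721963, with 2 mismatches, fell in untranslated exon sequence at position 314. *Zmat3* held the 1 site with 0 mismatches among these genes, at chr3:32263253-32263272 in an intron at position 1338, and a site with 1 mismatch at chr3:32269073-32269092 (position -4482). Of the 10 genes, 5 held such a site, against 9.84% of 22367 genes searched in the same way. With at most 1 mismatch the sites were those of *Cdkn1a*, *Ccng1* and *Zmat3* (1.72% of genes), and with up to 3 mismatches *Bbc3* and *Mdm2* also held one (7 of 10 genes against 39.3%). A match is a stretch of letters and does not show that p53 binds there.

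**Figure D1:**
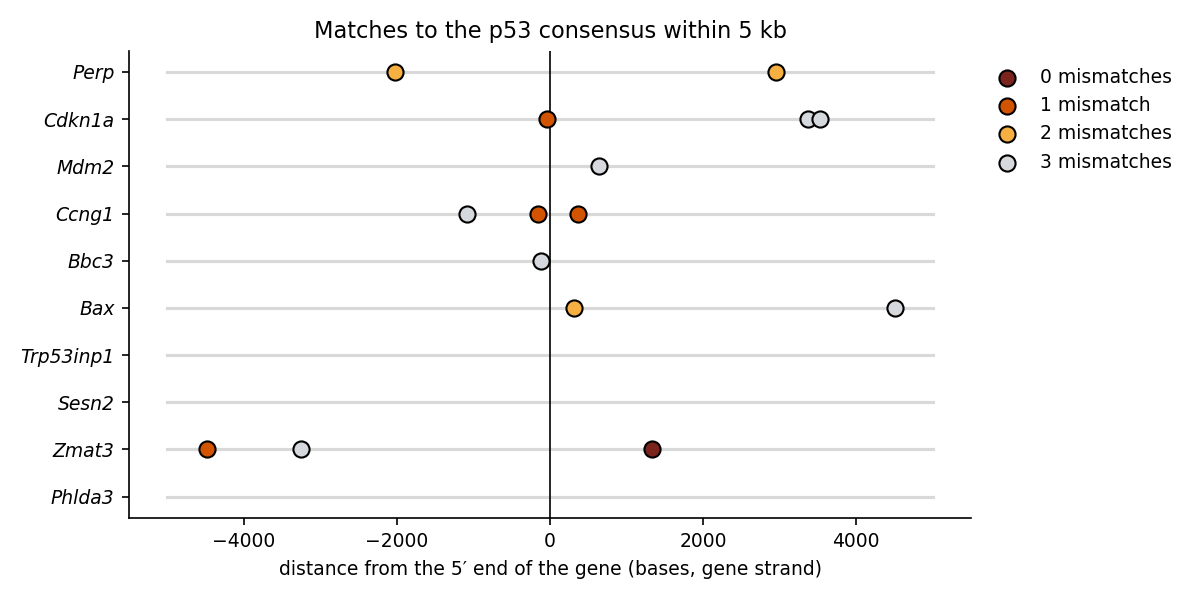
Matches to the p53 consensus around the 10 genes, by distance from the 5′ end of the gene in bases on the gene strand (x axis), one line per gene, coloured by mismatches. The matches nearest to a 5′ end with at most 2 mismatches were those of *Cdkn1a* (-42), *Ccng1* (-160) and *Bax* (314), and the *Perp* matches lay at -2028 and 2956.

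The shallowest library, Over-con 2, held 5611846 counts and the deepest 12866545 (median 10221419). *Stella* was at 0 counts in all KO, KO-con and Over-con libraries and at 30.3 ± 1.85 CPM (SD, n = 3) in Over, so its count does not check the knockout label. Of 14 germ cell markers, 3 were at 0 in all libraries, among them *Ddx4*, and *Dazl* had 1 count in all. Both genes have 2 listed transcripts, as do *Cdkn1a* and *Mdm2*. *Stra8* and *Bcl6b*, with 1 listed transcript each, had 1 and 2 counts in all libraries together. Of the 14 markers, 3 averaged at least 1 CPM over the 12 libraries. The summed level of the germ cell list was 115 to 139.9 CPM in KO-con, 81.2 to 121.7 in KO, 153.2 to 167.4 in Over-con and 149.5 to 161.9 in Over, most of it *Ifitm3*. The Over sum includes the added *Stella*, at 30.3 CPM there and at 0 in the other groups. *Ifitm3* alone averaged 124.5 CPM in Over and 154.7 in Over-con. Fibroblast markers (10 genes, 2 at 0) summed to 1002 to 1183 CPM in KO-con, 877.2 to 1268 in KO, 1409 to 1594 in Over-con and 1248 to 1305 in Over, most of it the collagen genes *Col1a1*, *Col1a2* and *Col3a1*. Mast cell markers (11 genes, 3 at 0) summed to 371.2 to 430.3, 1148 to 1228, 759.1 to 863.3 and 647.1 to 667.8 CPM in the same order, most of it *Cpa3*. *Fcer1a* and *Tpsab1*, with 1 listed transcript each, were at 0, and *Tpsb2* had 8 counts in all libraries together. The highest group means of *Cma1* and *Hdc*, both in KO, were 3.797 and 4.175 CPM. Macrophage markers (6 genes, 2 at 0) summed to 176.6 to 195.8, 226.9 to 265.4, 210 to 230.3 and 223.6 to 229.7 CPM, most of it *Fcgr1*. Group means of *Csf1r* ran only from 0.797 to 1.56 CPM, and those of *Lyz2* from 0.547 to 0.764. Epithelial markers (6 genes, 1 at 0) summed to at most 2.304 CPM in any library. The part of other cell types in the differences between groups was not tested.

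*Perp* (NM_022032, chr10:18564877-18576879 on the plus strand of mm9) was low in Over-con and at more than 2 times that level in each of the other groups. Levels are CPM, each count scaled to a common library total, after TMM normalization over all 12 libraries. In Over-con it stood at 24.3, 24.8 and 28.7 CPM, from 237, 141 and 296 counts. In Over it stood at 63.2, 63.1 and 59.8 CPM, from 683, 824 and 559 counts. The KO-con libraries gave 72.1, 66.2 and 79.1 CPM, and the KO libraries 77.6, 74.8 and 90.7 CPM. All 3 Over-con libraries lay below the other 9, the Over libraries came next and below all KO-con and KO libraries, and KO-con and KO overlapped. *Perp* was 2.39-fold higher in Over than in Over-con (log2 fold change 1.26, SE 0.09), and 2.79-fold higher in KO-con than in Over-con (log2 fold change 1.48, SE 0.10). These contrasts rest on the low level of Over-con that chose the gene and carry no p. The shallow library Over-con 2, at 24.8 CPM, lay between its fellows. The fibroblast sum, most of it from the 3 collagen genes, was also highest in Over-con, in all 3 libraries. The means of *Pdgfra*, *Fn1* and *Dcn* were highest in Over-con too, while that of *Thy1* was highest in KO (45.9 CPM against 40.1 in Over-con). Whether this bears on *Perp* was not tested.

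KO against KO-con did not enter the choice of *Perp* and could be tested. With 3 libraries in each group, KO-con averaged 72.5 ± 6.45 CPM and KO 81.1 ± 8.49 CPM (SD), and the libraries overlapped. The log2 fold change was 0.17 (SE 0.09), which edgeR's quasi-likelihood test did not call (Benjamini-Hochberg adjusted p = 0.273). In the order of levels, KO, KO-con and Over followed each other before Over-con, with 62.0 ± 1.95 CPM in Over and 25.9 ± 2.42 in Over-con.

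**Figure D2:**
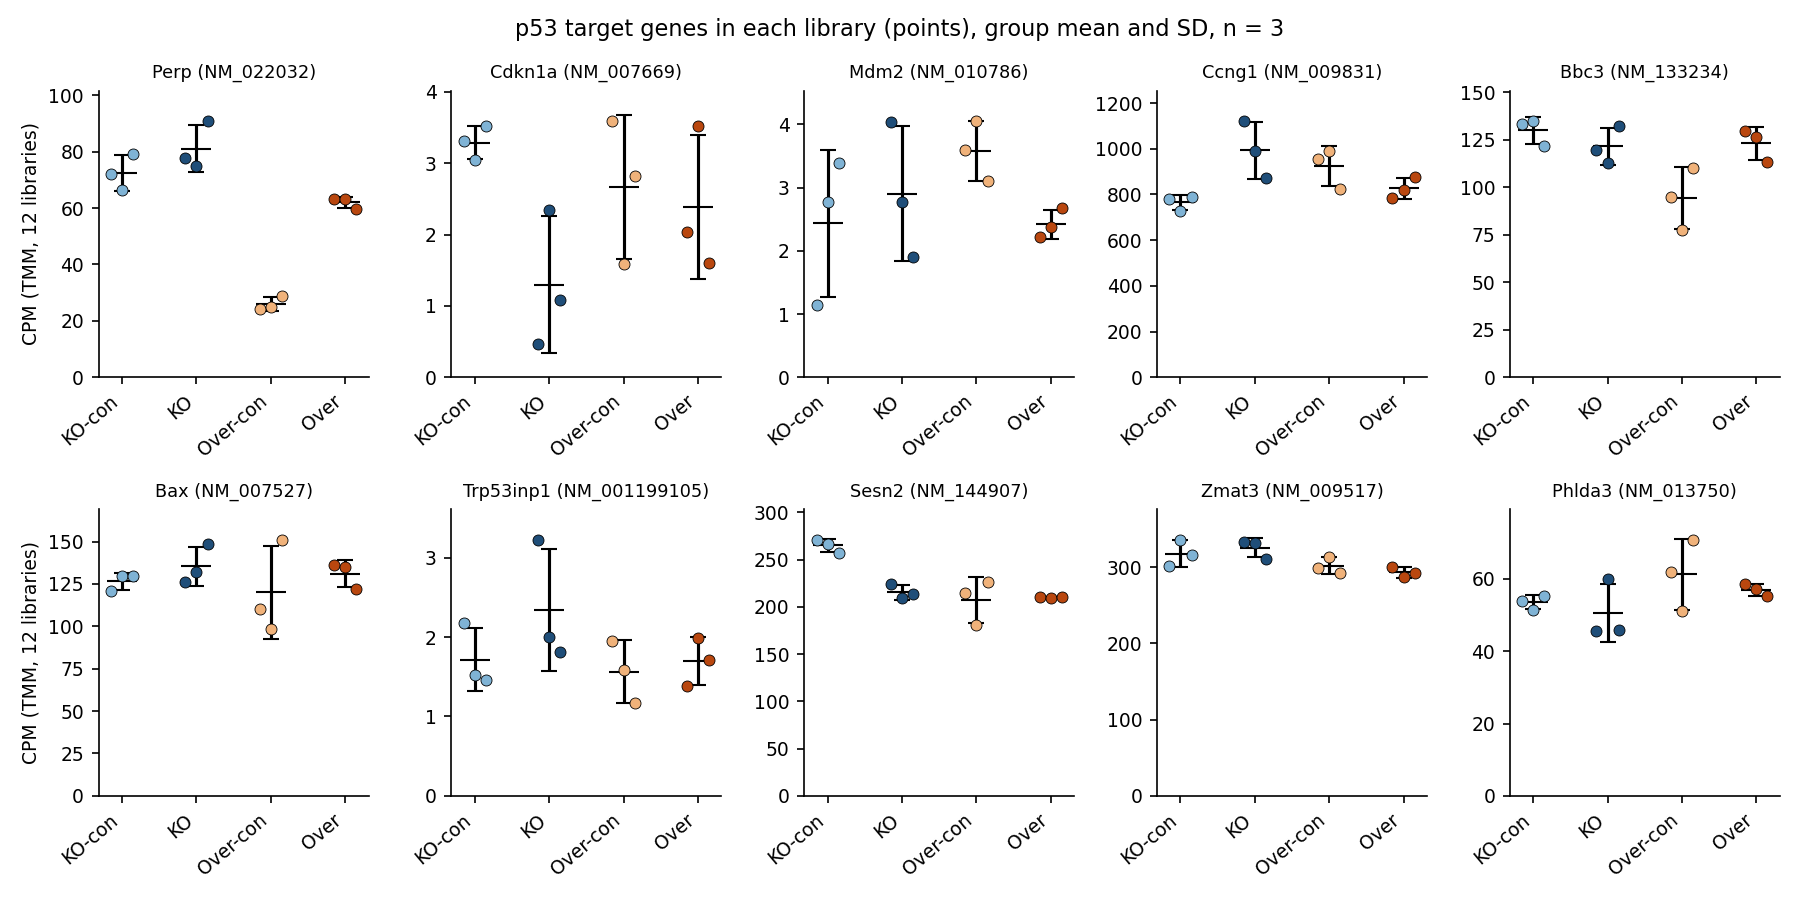
CPM of the 10 genes in each library (points), with the group mean and SD (bars, n = 3); each panel starts at 0 and has its own scale, and the transcript shown is named in its title. *Perp* lay at 24.3 to 28.7 CPM in Over-con and at 59.8 to 90.7 CPM in the other 9 libraries; the *Bbc3* panel shows the same low group with a smaller gap to the others, and in the *Sesn2* panel KO-con lies above the rest.

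The genes differed widely in how well they were counted. The 7 genes with 1 listed transcript (*Perp*, *Ccng1*, *Bbc3*, *Bax*, *Sesn2*, *Zmat3* and *Phlda3*) had 141 to 11421 counts per library. The 3 with 2 listed transcripts (*Cdkn1a*, *Mdm2* and *Trp53inp1*) had 8 to 48, summed over both. How reads shared between transcripts of a gene were counted is not given in the sources used here. The second transcripts of *Mdm2* (NM_001288586) and *Trp53inp1* (NM_021897) had 0 counts in all libraries, and that of *Cdkn1a* (NM_001111099) had 0 to 9 and was not tested. The other 10 transcripts, 1 for each gene, passed the filter on low counts in all comparisons.

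Per kilobase of exon, the mean levels of the groups ran from 218 to 283 CPM for *Ccng1* and from 89.6 to 101 for *Bax*. They ran from 59.6 to 76.2 for *Sesn2*, 46.9 to 64.7 for *Bbc3*, 36.3 to 40.3 for *Zmat3* and 32.4 to 39.3 for *Phlda3*. *Perp* spanned 13.6 to 42.7 on this scale, above *Phlda3* in KO-con (38.1 against 34.4) and below it in Over-con (13.6 against 39.3).

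Among the regulators of the cell cycle and of p53 itself, *Ccng1* differed between KO and KO-con. *Ccng1* (NM_009831, chr11:40562054-40568813, minus strand) encodes cyclin G1, which recruits a phosphatase to MDM2. The KO-con libraries gave 780.4, 728 and 787 CPM and the KO libraries 1120, 991 and 870.2 CPM, so that all KO libraries lay above all KO-con libraries. *Ccng1* was 1.31-fold higher in KO (log2 fold change 0.38, SE 0.09, adjusted p = 0.0075 by edgeR). Over-con gave 955, 991 and 825 CPM and Over 785, 820.5 and 876 CPM, which overlapped (log2 fold change -0.15, SE 0.07, adjusted p = 0.401 by edgeR). The difference between the KO effect and the Over effect was 0.54 on the log2 scale (SE 0.12, adjusted p = 0.0076 by edgeR over all 12 libraries). KO-con was the lowest of the 4 groups, at 765.1 ± 32.7 CPM, and it was also lower than Over-con (log2 fold change -0.26, SE 0.08, adjusted p = 0.022 by edgeR). That last call was kept in only 1 of the 6 fits that each left out a library, the one without Over-con 3, and was lost without each of the other 5. In the order KO, Over-con, Over and KO-con, no group differed from the next by edgeR (adjusted p = 0.46 to 0.516).

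*Cdkn1a* (NM_007669, chr17:29227924-29237667, plus strand) encodes p21, the cyclin-dependent kinase inhibitor through which p53 halts the cell cycle. It had 32, 34 and 29 counts in KO-con and 4, 27 and 12 in KO, or 3.31, 3.04 and 3.51 CPM against 0.461, 2.34 and 1.09 CPM. All KO libraries were lower, but KO 2 lay far nearer to KO-con than KO 1 did. The log2 fold change was -1.26 (SE 0.39), ran from -2.00 to -0.91 as single libraries were left out, and was -0.92 on counts summed over both transcripts. In Over-con it had 35, 9 and 29 counts and in Over 22, 46 and 15, which overlapped (log2 fold change -0.17, SE 0.34, adjusted p = 0.88 by edgeR). *Mdm2* (NM_010786, chr10:117125944-117147814, minus strand) encodes the ligase that marks p53 for destruction. It was at 3.59, 4.05 and 3.11 CPM in Over-con and 2.22, 2.37 and 2.67 CPM in Over, from 23 to 35 and 24 to 31 counts. The groups did not overlap, and the log2 fold change of -0.54 (SE 0.25) was not called (adjusted p = 0.381 by edgeR). In KO against KO-con the *Mdm2* libraries overlapped, with a log2 fold change of 0.25 (SE 0.37, adjusted p = 0.743 by edgeR).

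Of the genes that act in apoptosis, *Bbc3* came nearest to the pattern of *Perp*. *Bbc3* (NM_133234, chr7:16894965-16903554, plus strand) encodes PUMA, a BH3-only protein that frees BAX and BAK from their inhibitors. It stood at 95.1, 77.6 and 109.9 CPM in Over-con and at 129.7, 126 and 113 CPM in Over, with no overlap but a gap of a few CPM between the nearest libraries. It was 1.30-fold higher in Over (log2 fold change 0.38, SE 0.10), with an adjusted p of 0.0715 by edgeR and of 0.0173 by DESeq2. KO-con gave 133, 135 and 122 CPM and lay above Over-con (log2 fold change 0.46, SE 0.10, adjusted p = 0.0023 by edgeR). KO gave 119.6, 113 and 132 CPM and overlapped KO-con (log2 fold change -0.09, SE 0.08, adjusted p = 0.522 by edgeR). In the order of levels, KO-con, Over and KO did not differ from the next (adjusted p = 0.685 and 0.934), and KO differed from Over-con (adjusted p = 0.0212), all by edgeR over 12 libraries. The difference between the KO and Over effects was -0.47 (SE 0.14, adjusted p = 0.0363 by edgeR), and was called in 5 of the 12 fits that left out a library.

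*Bax* (NM_007527, chr7:52717065-52722268, minus strand) encodes the pore-forming protein of the outer mitochondrial membrane. It was at 110.5, 98.4 and 151 CPM in Over-con and 136, 135 and 122 CPM in Over, and Over-con 3 lay above all Over libraries. The log2 fold change was 0.13 (SE 0.11, adjusted p = 0.705 by edgeR) with all libraries and 0.33 (SE 0.07, adjusted p = 0.0045) without Over-con 3. KO-con was at 121, 129.6 and 129.5 CPM and KO at 126, 132 and 149 CPM (log2 fold change 0.11, SE 0.08, adjusted p = 0.438 by edgeR). *Trp53inp1* (NM_001199105, chr4:11083578-11101526, plus strand), which encodes a stress-induced partner of p53, had 9 to 28 counts per library. Its group means ran from 1.57 to 2.35 CPM, and its libraries overlapped in both comparisons.

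*Sesn2* (NM_144907, chr4:132047947-132066416, minus strand) encodes sestrin 2, a leucine sensor and inhibitor of mTORC1 signaling. It was highest in KO-con, at 271, 266 and 257 CPM, against 224, 209 and 213 CPM in KO. It was 0.816 times as high in KO (log2 fold change -0.29, SE 0.07, adjusted p = 0.0081 by edgeR), and the call was lost without KO-con 1 (adjusted p = 0.0536). Over-con gave 214, 180.4 and 227 CPM and Over 210.1, 209 and 210.5 CPM, which overlapped (log2 fold change 0.02, SE 0.08, adjusted p = 0.936 by edgeR). KO-con also lay above Over-con (log2 fold change 0.36, SE 0.08, adjusted p = 0.0035 by edgeR), while KO, Over and Over-con did not differ from the next in order (adjusted p = 0.825 and 0.964). The gene Gm12981 overlaps *Sesn2* on the same strand, and reads of the overlap could belong to either.

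*Zmat3* and *Phlda3* were well counted and were not called in either comparison. *Zmat3* (NM_009517, chr3:32233718-32264600, minus strand), which encodes a zinc-finger RNA-binding protein, ranged from 287 to 336 CPM over all 12 libraries. Its log2 fold change was 0.04 in KO against KO-con (SE 0.07, adjusted p = 0.776 by edgeR) and -0.03 in Over against Over-con (SE 0.06, adjusted p = 0.86). *Phlda3* (NM_013750, chr1:137662696-137665713, plus strand), which encodes a repressor of AKT, ranged from 45.7 to 70.8 CPM. Its log2 fold change was -0.07 in KO against KO-con (SE 0.11, adjusted p = 0.744 by edgeR) and -0.11 in Over against Over-con (SE 0.10, adjusted p = 0.705).

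Seen together, 3 of the 10 genes passed in KO against KO-con (*Ccng1* higher, *Sesn2* and *Cdkn1a* lower), the last of which was known beforehand, where 11.8% of the 9457 transcripts tested passed (5.83% higher and 5.96% lower in KO). The libraries of the same 3 genes did not overlap, and they did not overlap for 30.5% of transcripts. In Over against Over-con, the comparison that chose *Perp*, 1.65% of 9401 transcripts passed (0.766% higher and 0.883% lower in Over). Of the 9 genes other than *Perp* edgeR called 0, with 2 (*Bbc3* and *Mdm2*) at an unadjusted p under 0.05, where 13% of transcripts were. DESeq2 called *Bbc3*, among 193 transcripts in all where edgeR called 155. Without Over-con 3, edgeR called *Bbc3* and *Bax* (higher in Over) and *Ccng1* (lower), and more transcripts in all. *Bbc3* and *Mdm2* differed in opposite directions and were the 2 of the 9 whose libraries did not overlap, against 19.3% of transcripts. In KO-con against Over-con, 3 of the 9 genes other than *Perp* passed, with *Bbc3* and *Sesn2* higher and *Ccng1* lower in KO-con, against 16.3% of 9321 transcripts (8.08% higher and 8.19% lower), and the libraries of the same 3 did not overlap, against 32.1%. Between the KO and Over effects, 2 of the 9 differed (*Ccng1* and *Bbc3*), against 8.64% of 9903 transcripts (4.12% with the KO effect above the Over effect and 4.52% below it). All these comparisons but KO against KO-con share the Over-con libraries. With an absolute log2 fold change over 1 required as well, the genes left were those already known, *Cdkn1a* in KO against KO-con (1.7% of transcripts) and *Perp* in Over against Over-con (0.17%), between the controls (2.16%) and between the effects (1.9%), from which nothing is read.

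The median log2 fold change of the 9 genes other than *Perp* was 0.04 in KO against KO-con and -0.03 in Over against Over-con, beside 0.0067 and -0.0012 for all transcripts tested. For the 6 of them with 1 listed transcript, log2 fold changes ran from -0.29 to 0.38 in KO and from -0.15 to 0.38 in Over. The middle 90% of all transcripts spanned -0.54 to 0.56 and -0.41 to 0.43 in the same comparisons, and these 6 genes lay inside that range. Of the thinly counted genes, *Cdkn1a* in KO (-1.26) and *Mdm2* in Over (-0.54) lay outside it, as did *Perp* in Over (1.26), the value that chose it.

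**Figure D3:**
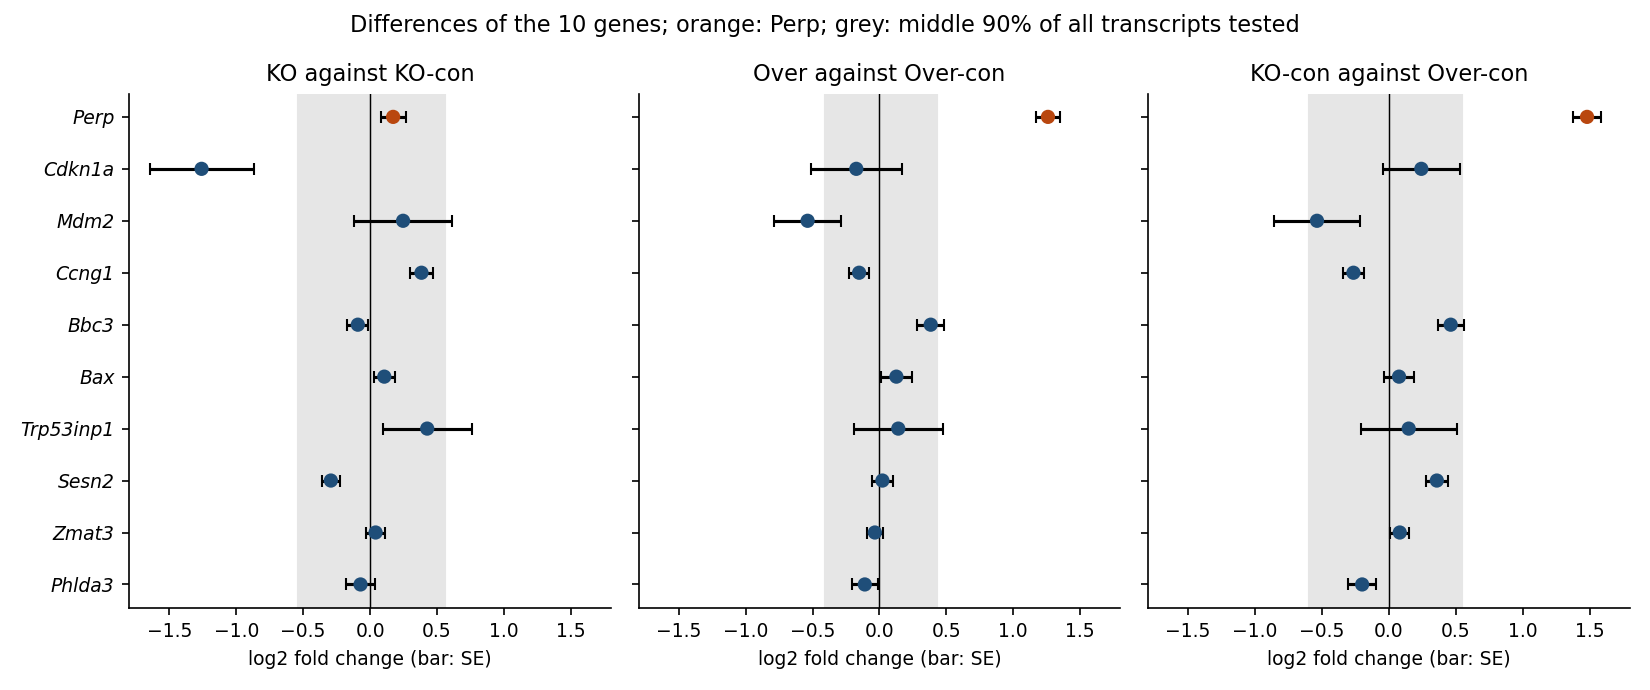
Log2 fold changes of the 10 genes in 3 comparisons (points, with SE as bars); *Perp* is orange and the grey band holds the middle 90% of all transcripts tested. *Perp* stood at 0.17 in KO against KO-con, 1.26 in Over against Over-con and 1.48 in KO-con against Over-con. The wide bars of *Cdkn1a*, *Mdm2* and *Trp53inp1* belong to genes with 8 to 48 counts per library over both listed transcripts. The plotted *Cdkn1a* transcript had only 4 counts in KO 1.

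A further 67 p53 targets, in 5 lists by role, were measured as transcripts in the same fits, and only 29 of the 31 with 1 listed transcript and 14 of the 36 with more passed the filter in KO against KO-con. In KO against KO-con, 6 of 44 transcripts passed, 3 in each direction, with a median log2 fold change of 0.09. This is near the share of all transcripts that passed (11.8%, with 5.83% higher and 5.96% lower) and is no result about the targets as a list. Higher in KO were *Fbxw7*, a ubiquitin ligase subunit that acts on cyclin E (0.46, adjusted p = 0.0331 by edgeR), the death receptor gene *Tnfrsf10b* (0.34, adjusted p = 0.0111) and the proline catabolism enzyme gene *Aldh4a1* (0.43, adjusted p = 0.0322). KO-con was also lower than Over-con for *Fbxw7* (-0.415, adjusted p = 0.0397 by edgeR) and *Aldh4a1* (-0.415, adjusted p = 0.0489). For *Tnfrsf10b* that difference was not called (-0.18, adjusted p = 0.169 by edgeR). Among those lower in KO were the immediate-early gene *Ier5* (-0.41, adjusted p = 0.0023 by edgeR) and *Sod2*, mitochondrial superoxide dismutase (-0.34, adjusted p = 0.0055).

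In Over against Over-con, 1 of 44 transcripts of the further targets passed, against 1.65% of all transcripts, and it was lower in Over. This was *Plk2*, a stress-linked polo-like kinase, at 154 ± 3.63 CPM in Over and 198 ± 2.32 in Over-con (log2 fold change -0.35, SE 0.06, adjusted p = 0.0064 by edgeR). The median of the 44 was -0.06. In KO-con against Over-con, 9 of 43 passed, 8 of them lower in KO-con, with a median of -0.05, where 16.3% of all transcripts passed (8.08% higher and 8.19% lower). Besides *Fbxw7*, given above, the cell cycle genes among them were *Sfn*, which encodes 14-3-3 sigma (-1.61, adjusted p = 3.115e-05 by edgeR), *Ccng2* (-0.46, adjusted p = 0.0016) and *Btg2* (-0.51, adjusted p = 0.0181). *Notch1* (-0.57, adjusted p = 3.636e-05 by edgeR) and the death receptor gene *Fas* (-0.50, adjusted p = 0.0035) were also lower in KO-con, and *Ier5* was the 1 that was higher (0.45, adjusted p = 0.00062). Between the KO and Over effects, 6 of 46 differed, 3 in each direction, against 8.64% of all transcripts, among them *Tnfrsf10b* (0.63, adjusted p = 0.00043 by edgeR), *Plk2* (0.49, adjusted p = 0.003) and *Sod2* (-0.44, adjusted p = 0.0178).

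*Trp53* itself, with 2 listed transcripts, had only 124 counts in all libraries together, and its group means ran from 0.837 to 1.18 CPM. Its log2 fold change was 0.28 in KO against KO-con (SE 0.55, adjusted p = 0.816 by edgeR) and 0.05 in Over against Over-con (SE 0.46, adjusted p = 0.978). In a list of 22 genes of the p53 family and its regulators, 14 transcripts were tested in KO against KO-con and 2 passed, both lower in KO, near the 11.8% of all transcripts. These were *Trp53bp2*, which encodes the apoptosis-stimulating partner ASPP2 (-0.53, SE 0.09, adjusted p = 0.00067 by edgeR), and the acetyltransferase gene *Crebbp* (-0.37, SE 0.08, adjusted p = 0.0063). Both were also higher in KO-con than in Over-con, by 0.50 and 0.25 on the log2 scale (adjusted p = 0.00021 and 0.0382 by edgeR). In Over against Over-con the lowest adjusted p of the list was 0.326 by edgeR, for the damage kinase gene *Atm* (log2 fold change 0.16, SE 0.07).

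The BCL-2 family, through which *Bbc3* and *Bax* act, was led by *Bcl2*, the anti-apoptotic founder of the family. Its main transcript was at 649.6 CPM in KO and 1006 CPM in KO-con (log2 fold change -0.62, SE 0.07, adjusted p = 2.261e-05 by edgeR), and its second listed transcript moved the same way (-0.91, SE 0.21, adjusted p = 0.0089). It was also higher in KO-con than in Over-con (0.70, SE 0.07, adjusted p = 4.823e-07 by edgeR), so that KO-con was the group that stood apart. *Bcl2l2*, an anti-apoptotic relative, was higher in KO (0.36, SE 0.11, adjusted p = 0.0372 by edgeR). In Over against Over-con the lowest adjusted p of this list was 0.589 by edgeR. Of 16 genes of desmosomes and of relatives of PERP, 4 were counted highly enough to be tested. *Emp2*, a member of the PMP22 family, was higher in KO (0.38, SE 0.08, adjusted p = 0.0059 by edgeR), at 78.5 ± 2.94 CPM against 60.7 ± 3.15 in KO-con. The desmosome plaque gene *Pkp2* had the lowest adjusted p of that list in Over against Over-con (0.34, SE 0.09, adjusted p = 0.091 by edgeR).

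**Figure D4:**
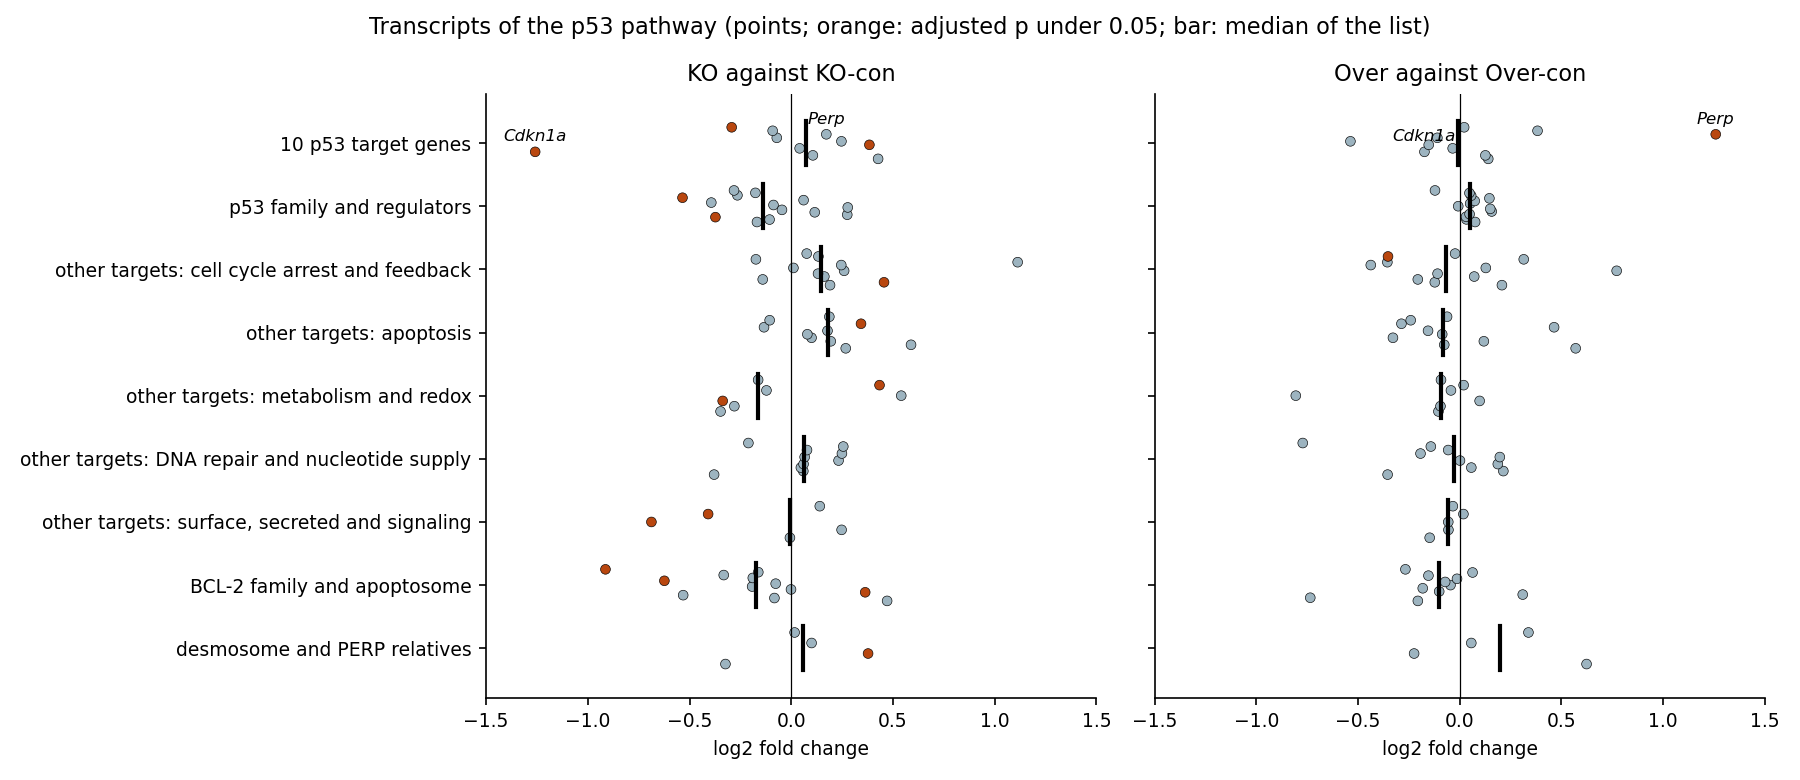
Log2 fold changes of the tested transcripts of the 10 genes and of 8 further lists (points, orange where the adjusted p was under 0.05), with the median of each list as a bar. In Over against Over-con (right) *Perp* at 1.26 and *Plk2* at -0.35 were the orange points, and in KO against KO-con (left) orange points lay on both sides of 0. The values of *Perp* in Over and of *Cdkn1a* in KO were known beforehand, so their colour is a description and no test.

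The transcripts whose levels most resembled *Perp* were sought over all 12 libraries by Pearson's r of log2 CPM, among 9241 other transcripts with a mean of at least 1 CPM. The top 5 were *Rragd*, which encodes the RagD GTPase of amino acid signaling (r = 0.957), *Sephs2*, an enzyme of selenoprotein synthesis (0.937), *Nlrp10* (0.935), *Synpo2* (0.933) and *D430019H16Rik* (0.923). None of these is among the 10 genes. *Rragd* had group means of 31.0 CPM in KO-con, 34.15 in KO, 17.85 in Over-con and 27.6 in Over, with the lowest mean in Over-con as for *Perp*, and the same held for the other 4. *Bbc3* ranked 74th of the 9241 (r = 0.822), and the next of the 10 genes was *Bax* (r = 0.493). The other 7 had r from -0.51 for *Phlda3* to 0.43 for *Sesn2*. The ranks follow the low level of the 3 Over-con libraries, which all these points share, and with Spearman's rho in place of Pearson's r, 0 of the 5 stayed in the top 5. By rho, *Bbc3* (0.594) and *Zmat3* (0.566) lay close together, with *Bax* at 0.329.

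**Figure D5:**
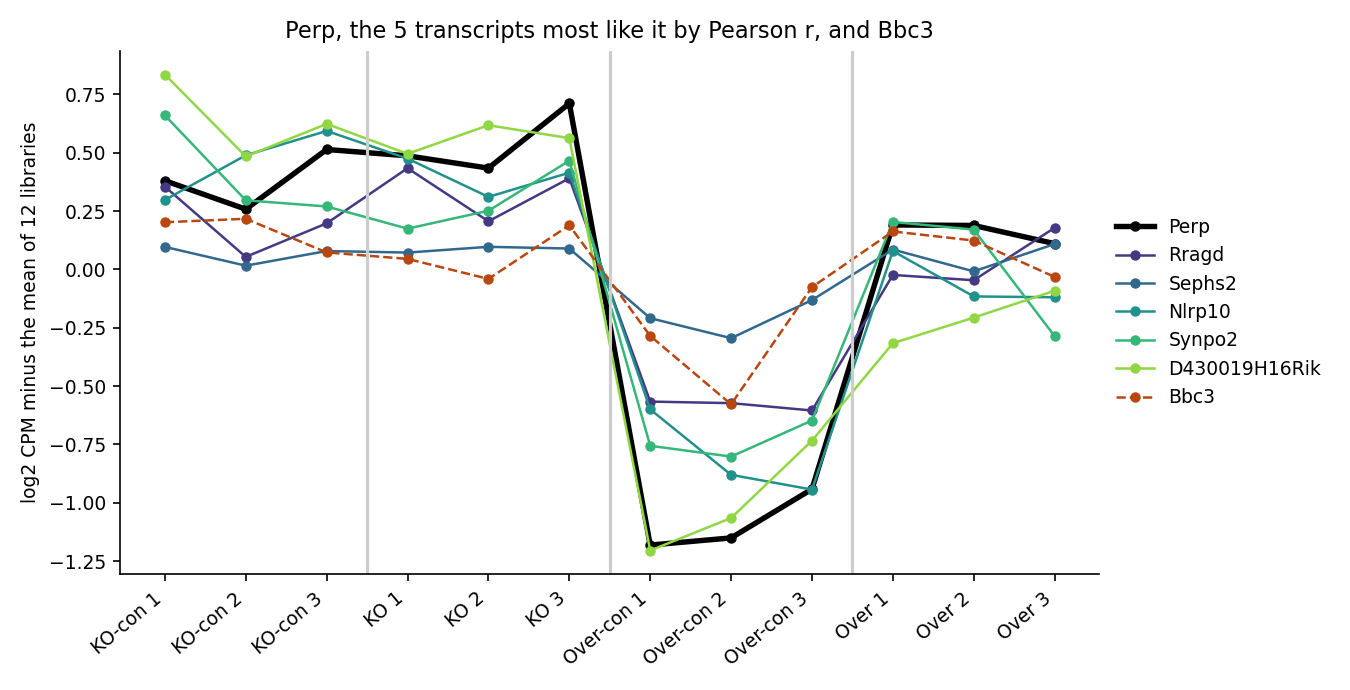
Log2 CPM of *Perp*, of the 5 transcripts most like it and of *Bbc3* (dashed) in each library, less the mean of the 12 libraries; lines only join the points of a gene. The 3 Over-con points of *Perp* lie below 0 and its other 9 points above it, and the *Bbc3* points move by less.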

How the data were processed

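RNA-seq libraries were made with the KAPA Stranded mRNA-Seq kit. The authors aligned trimmed reads to mm9 with HISAT2 at default settings, and the deposited values are raw counts per RefSeq transcript. The strand setting and the treatment of shared reads are not given in the sources used here. Groups and replicate numbers came from the sample titles. RefSeq's GRCm38.p6 gene table gave symbols for 99.5% of the transcripts. Positions and exon lengths came from GENCODE M1 on the mm9 assembly.

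Counts were tested as listed with edgeR 4.0.16 in R 4.3.3 (TMM, filterByExpr, glmQLFit and glmQLFTest), calling a transcript at a Benjamini-Hochberg adjusted p under 0.05 across the whole tested table. Differences between effects and the order of levels came from 1 fit of 12 libraries. One alternative was DESeq2, run here as version 1.42.0, which the study also used without giving a version. Others were further scalings and filters, counts summed per gene, the other control group, the replicate number as a block, and leaving out each library. An exact permutation test of 3 against 3 cannot give a p below 0.1. The steps were tested on simulated data.

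The 10 genes and all lists were chosen with earlier results of these data known. The text names the 10 genes, *Stella*, at most 3 genes per list and comparison by the lowest adjusted p under 0.05, the 5 transcripts most like *Perp*, and defining markers. *Trp53*, *Atm* and *Pkp2*, and *Fbxw7* and *Tnfrsf10b* between the controls, were named after their values were seen. One further gene of a list is not reported here.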

Additional observations from a re-analysis of the deposited data

Results flagged for a closer look

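The KO effect is KO against KO-con and the Over effect is Over against Over-con, both differences between lines. Among the 9 genes other than *Perp* these effects differed for *Ccng1* and *Bbc3*, tested in 1 edgeR fit of all 12 libraries. For *Perp* the KO effect minus the Over effect was -1.086 on the log2 scale, a description because the Over effect chose the gene. It was 0.5362 for *Ccng1* (adjusted p = 0.0076 by edgeR), with the KO libraries above the KO-con libraries in 3 of 3 and the Over and Over-con libraries overlapping. It was -0.4745 for *Bbc3* (adjusted p = 0.0363 by edgeR), which was called in 5 of 12 fits that each left out a library. For *Perp* and *Bbc3* the lowest of the 4 groups was Over-con, and for *Ccng1* it was KO-con.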

How the results depend on the processing

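The values of *Perp* against Over-con chose the gene, so its calls there are no sign of stability. The count of the 10 genes called in that comparison was 1 as reported (*Perp*). It was 2 with DESeq2, with library totals only, with no filter on low counts, each by adding *Bbc3*, and 2 with KO-con as the control (*Perp* and *Sesn2*). Leaving out a library gave 1 to 4, with 4 (*Perp*, *Bbc3*, *Bax* and *Ccng1*) without Over-con 3, where 719 of all transcripts were called in place of 155, and 48 to 90 without each other library. In KO against KO-con the count of 3 became 1 with a fold change threshold as well and 1 with Over-con as the control, and 1 to 3 without a library, the 1 being without KO-con 1. The count of 4 in KO-con against Over-con and that of 3 between the effects each became 1 with the fold change threshold, and 3 to 5 and 2 to 4 without a library. *Cdkn1a* in KO was no longer called with library totals only (log2 fold change -1.23), with counts summed per gene (-0.92) or in 5 of 6 fits without a library (-2.00 to -0.91); it was still called without KO 2.

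With the control group exchanged, KO against Over-con gave a turned sign for *Mdm2* (-0.303), *Bbc3* (0.36) and *Sesn2* (0.054). Over against KO-con did so for *Mdm2* (0.004), *Ccng1* (0.117), *Bbc3* (-0.074), *Trp53inp1* (-0.003), *Sesn2* (-0.332) and *Phlda3* (0.096). It also did so for *Perp* (-0.215, or -0.22 and not called with 12 libraries in 1 fit). The Over libraries took part in choosing *Perp*, so no p is given and the lack of a call does not show equal levels. Without a library, signs turned for *Mdm2* in KO (-0.096 to 0.523), for *Cdkn1a* (-0.589 to 0.086), *Sesn2* (-0.058 to 0.089), *Trp53inp1* (-0.068 to 0.37) and *Phlda3* (-0.206 to 0.006) in Over, for *Bax* (-0.043 to 0.274) and *Trp53inp1* (-0.065 to 0.368) between the controls, and for *Bax* (-0.225 to 0.094) and *Phlda3* (-0.122 to 0.14) between the effects. The cause was not tested. In all, 335 of 363 values of the 10 genes kept their direction and side of the threshold under the other settings, and 255 of 300 without a library. These counts include the values of *Perp* and *Cdkn1a* known beforehand and the many values that stayed uncalled, so they do not measure stability.

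Same-numbered libraries did not deviate together (correlations -0.152 to 0.0568). This gives no sign that the numbers pair the libraries, but 3 libraries per group cannot exclude it. With the replicate number as a block the counts of the 10 genes stayed at 3, 1, 4 and 3, while those of all transcripts went from 1115 to 837 in KO, from 155 to 67 in Over, from 1516 to 1620 between the controls and from 856 to 733 between the effects. With Spearman's rho 0 of the 5 transcripts most like *Perp* were kept, and with at most 1 mismatch 3 genes held a p53 site. Counts of 8 to 48 per library, summed over both listed transcripts, limit what can be said of *Cdkn1a*, *Mdm2* and *Trp53inp1*.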

Other observations

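The genes within 1 Mb of *Perp* on chromosome 10 were read after the values of *Perp* were known, so they are a description. Their tested transcripts had log2 fold changes between -0.41 (*Reps1*) and 0.19 (*Slc35d3*) in Over against Over-con, with a lowest adjusted p of 0.363 by edgeR (*Ifngr1*). *Hebp2*, the nearest tested neighbour on the left at 298995 bases, stood at 43.8 CPM in Over-con and 39.7 in Over. *Ifngr1*, the interferon gamma receptor gene at 734876 bases on the right, stood at 81.9 CPM in Over-con and 72.5 in Over. In KO-con against Over-con, where *Perp* was higher in KO-con, *Ifngr1* was lower in KO-con (log2 fold change -0.25, adjusted p = 0.0361 by edgeR) and so was *Slc35d3* (-0.69, adjusted p = 0.0194).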
